A study of Xenopus laevis with 3 samples.

Results

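Membrane transporters and solute carriers move vitamins, sugars, amino acids, metals and other small molecules across membranes. The probes described here are the 30 of 21504 spots on a Xenopus laevis cDNA array whose annotated name held the word transporter, sodium-dependent, cotransporter or solute carrier. Names of ATPases and of mitochondrial proteins were left out. Each spot was a different cDNA clone, and the 30 clones carried 16 names. Of these clones, 14 had 7 names used for vertebrate carriers, and 2 had a name, low-affinity glucose transporter, whose species was cut off in the annotation. The other 14 clones had 8 names used for bacterial or fungal carriers, such as ABC transporter (permease). A name was the best database match of the clone and not proof of the gene.

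Endoderm, the inner layer that forms the gut and its glands, was taken by hand from X. laevis embryos at stages 30, 39 and 46 and divided into an anterior and a posterior part. Per the study's design the anterior part gives rise to foregut organs such as liver and stomach, and the posterior part to intestine. At each stage anterior cDNA was labelled with Cy5 and posterior cDNA with Cy3, and both were hybridised together on 2 arrays, called A and B here. The sources name no strain, sex, treatment or number of embryos behind an RNA. The dyes kept 1 orientation throughout, so an effect of dye and one of region cannot be told apart in a ratio. A dye effect that is the same at all stages drops out of a difference between stages. The sources do not say whether A and B came from separate dissections, and the p-values below measure only the spread between these arrays, which may be technical. In dissected tissue, fewer cells of a type and less RNA per cell cannot be told apart.

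As background, a nutrient crosses an absorbing cell by a carrier on the lumenal side, often driven by the sodium gradient that the sodium pump keeps up, and leaves by another carrier on the opposite side. Before a tadpole feeds, its endoderm cells live on stored yolk, and the transport genes of the gut come into use as the epithelium matures. Other carriers work inside the cell, where they load vesicles with metal ions or bring activated sugars into the Golgi.

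Median spot intensities ran from 607 to 2988.5 in the anterior channel and from 807 to 3037 in the posterior channel, highest at stage 30 in both. Between arrays A and B, the ratios of all probes correlated with r = 0.85 at stage 30, 0.95 at stage 39 and 0.93 at stage 46. Well above background here means a median over 2 local background SDs higher than the local background median, which 39.3% to 62.5% of spots reached in a channel. The local SD is high beside some bright spots, so a bright spot can miss this mark. Endodermin, an endoderm marker of Xenopus, was well above background in both regions on all 6 arrays for 1 of its 2 clones and on 3 arrays for the other. No clone was named for the pancreas markers searched.

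Of the 30 transporter clones, 24 were well above background in at least 1 region on at least 2 arrays and entered the tests. The 6 others were 5 clones with bacterial or fungal names and the only clone of organic anion transporter B, known as an uptake carrier of organic anions (SLCO2B1 in mammals). That clone, XL065n03, read 680, 221, 204, 140, 138 and 122 in anterior endoderm on arrays A and B of stages 30, 39 and 46, against 937, 551, 414, 300, 249 and 198 in posterior endoderm. None of these intensities was well above background, so it gives no comparison of the regions.

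The largest regional difference among the tested transporter clones was that of the sodium-dependent multivitamin transporter at stage 30. At stage 39 the other vertebrate-type carriers that were tested were mostly lower in anterior than in posterior endoderm, with zinc transporter 2 and 1 clone of monocarboxylate transporter 4 on the higher side. At stage 46 the median log2 ratio of the 15 tested clones with a vertebrate-type name or the glucose transporter name was 0.06. Counts were taken by limma with Benjamini-Hochberg adjustment over all probes tested in a comparison, at an adjusted p under 0.05.

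At stage 30, 6 of the 23 transporter clones tested were higher and 10 were lower in anterior than in posterior endoderm. Over all probes, 28.6% were higher and 27.7% were lower, against 26.1% and 43.5% of the transporter clones. At stage 39, 3 of 21 were higher and 11 were lower, against 31.4% and 31.7% of all probes. The 11 were all among the 14 tested clones with a vertebrate-type name or the glucose transporter name, whose median log2 ratio was -0.65 beside 0.01 over all probes. None of the 7 tested clones with a bacterial or fungal name was called at stage 39 by limma, and 2 of them had an unadjusted p under the same threshold. Both clones of the glucose transporter name, in use for yeast hexose carriers, were among the 11. With that name set among the fungal ones, lower clones would stand in both groups. At stage 46, 5 of 23 were higher and 5 were lower, against 30.4% and 25.2% of all probes. That count rested on both arrays: 2 clones were called without array A of stage 46 and 3 without array B. Of the called clones, 12 of 16, 10 of 14 and 7 of 10 at stages 30, 39 and 46 were well above background in both regions. Of the 11 lower at stage 39, 7 were so in both regions, 3 in 1 region, and 1 in neither. The 11 include all tested clones of monocarboxylate transporter 7 and both clones each of the glucose and UDP-galactose names. Clones of 1 name may hold the same gene and are not independent.

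**Figure D1:**
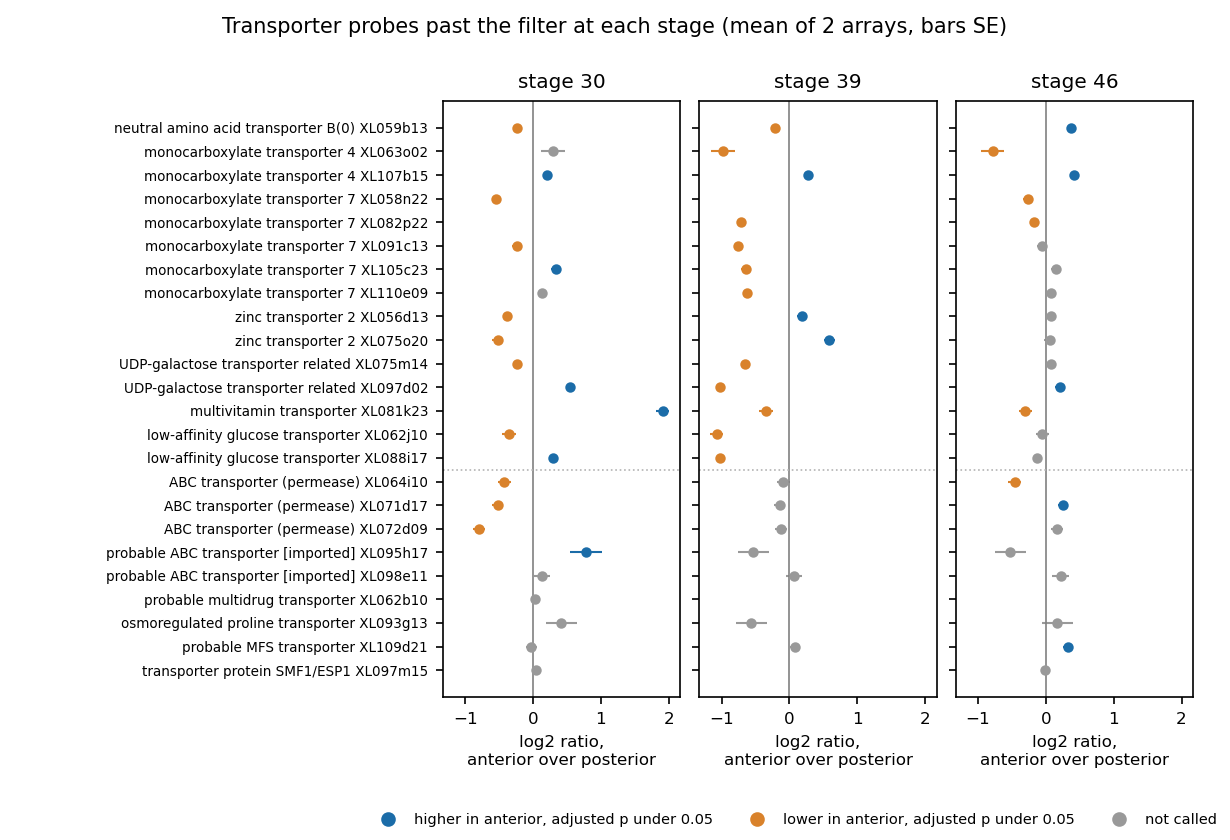
Each dot is the log2 ratio of anterior over posterior endoderm (x axis) of 1 transporter clone past the filter (y axis), as the mean of 2 arrays with the limma standard error as a bar, at stages 30, 39 and 46. Clones above the dotted line have vertebrate-type names or the glucose transporter name, and those below it have bacterial or fungal names. At stage 39, 11 of the 14 tested clones above the line were lower in anterior endoderm, several of them clones of the same name. The multivitamin transporter stood apart at stage 30 with 1.91.

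Between stages, the anterior over posterior ratio fell for 11 and rose for 4 of the 20 transporter clones tested for stage 39 minus stage 30, while 30.5% of all probes fell and 29.6% rose. For stage 46 minus stage 39 it rose for 10 and fell for 1 of 21, while 28.1% of all probes rose and 22.1% fell. For stage 46 minus stage 30 it rose for 8 and fell for 5 of 22, beside 28.7% and 24.7% of all probes. This last count of 13 was 8 without array B of stage 39 and 8 without array B of stage 46. Both stage 39 differences share the stage 39 arrays, so a ratio that is low on those arrays enters each of them. Of the called differences, 7 of 15, 7 of 11 and 8 of 13 came from clones well above background in both regions at both stages, with 5 falls and 2 rises, 6 rises and 1 fall, and 7 rises and 1 fall.

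The sodium-dependent multivitamin transporter (SLC5A6 in mammals) takes up biotin, pantothenate and lipoate together with sodium. Its single clone, XL081k23, was well above background in both regions on all 6 arrays. At stage 30 it read 20724 and 7394 in anterior endoderm on arrays A and B, against 4502 and 2657 in posterior endoderm. At stage 39 it read 393 and 332 in anterior endoderm, against 725 and 546 in posterior endoderm. At stage 46 it read 307 and 362 in anterior endoderm, against 457 and 608 in posterior endoderm. The anterior readings of stage 30 were above every other one of this probe, with no correction for the scanner gain of a slide. At the later stages anterior readings were below posterior ones on each array.

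After normalisation the log2 ratios of the multivitamin transporter were 2.09 and 1.73 at stage 30. Their mean was 1.91 ± 0.10, or 3.76-fold higher in anterior endoderm (limma, adjusted p = 2.37e-05). The value after ± is limma's moderated SE, here and for the ratios below. It pools the spread over the arrays of all stages and is not the SE of the 2 arrays alone. The log2 ratios were -0.45 and -0.25 at stage 39 (mean -0.35, adjusted p = 0.0174) and -0.18 and -0.42 at stage 46 (mean -0.30, adjusted p = 0.0344). The ratio therefore changed side between the first stage and the later ones on every array. It dropped by 2.26 ± 0.14 (log2) at stage 39 relative to stage 30 (adjusted p = 2.39e-05) and dropped by 2.21 at stage 46 relative to stage 30 (adjusted p = 3.69e-05). Stages 39 and 46 differed by 0.04 (adjusted p = 0.811). The stage 39 difference lost its call without array A of that stage (adjusted p = 0.221), and the stage 46 difference without array A of stage 39 (0.0504) or either array of stage 46 (0.0623 and 0.351). With no background subtraction both missed the threshold, at -0.21 (adjusted p = 0.0871) and -0.23 (adjusted p = 0.0741). In the authors' deposited table the log2 ratio at stage 39 was -1.13, a table in which the median of all probes at that stage was -0.32.

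Scanner gain was set per slide, so signals compared over the stages, here and below, are relative to the other probes of an array. On that scale the multivitamin transporter fell within both regions. Its normalised log2 signal in anterior endoderm was 12.52, 8.69 and 8.82 at stages 30, 39 and 46, against 10.61, 9.03 and 9.13 in posterior endoderm (SD between 2 arrays 0.03 to 0.30). The anterior signal fell 14.3-fold by stage 39 (limma separate-channel fit, adjusted p = 0.000401) and 13.0-fold by stage 46 (adjusted p = 0.000263). The posterior signal fell 2.99-fold (adjusted p = 0.0321) and 2.81-fold (adjusted p = 0.0287). The posterior fall by stage 39 lost its call without array A or B of stage 39 (0.138 and 0.192) or array B of stage 46 (0.0543). The posterior fall by stage 46 lost it without either array of stage 39 (0.0563 and 0.0608) or of stage 46 (0.163 and 0.0879).

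**Figure D2:**
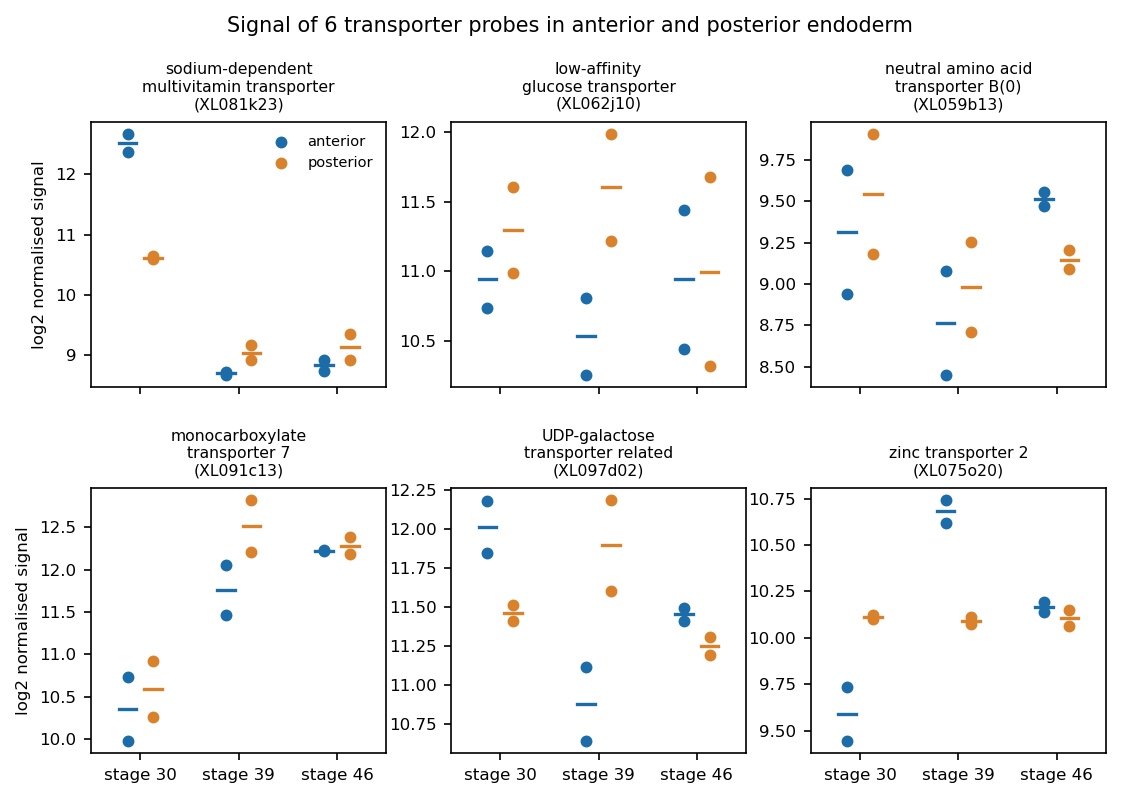
Normalised log2 signal (y axis) of the brightest clone of 6 transporters in anterior (blue) and posterior (orange) endoderm at stages 30, 39 and 46 (x axis); dots are the 2 arrays and bars their mean, and each panel has its own y range. The anterior signal of the multivitamin transporter had a mean of 12.52 at stage 30, apart from all its other points, while monocarboxylate transporter 7 was lowest in both regions at stage 30.

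Beside the multivitamin transporter, the sodium pump, which keeps up the gradient that sodium-coupled carriers use, had 27 clones on the array. At stage 30, 18 of its 20 tested clones were higher in anterior endoderm and none was lower (median log2 ratio 1.10). At stage 39, 2 of 16 were higher and 8 were lower (median -0.14), and at stage 46, 2 of 19 were higher and 12 were lower (median -0.70). Over all probes, 28.6% were higher and 27.7% lower at stage 30, 31.4% and 31.7% at stage 39, and 30.4% and 25.2% at stage 46. Liver markers stood higher in anterior endoderm at stage 30, in 10 of 11 tested clones with none lower (median 0.38), and 3 of all 14 liver clones were well above background on no array. Over the 9 liver marker clones with values on all arrays, the summed signal at stage 30 was 38971 to 40182 in anterior endoderm and 18704 to 20046 in posterior endoderm. At stage 39 it was 63215 to 71133 in anterior endoderm and 94105 to 107991 in posterior endoderm, with 5 of 11 tested clones higher and 6 lower (median -0.28). At stage 46 it was 84206 to 84930 in anterior endoderm and 120415 to 123521 in posterior endoderm, with 3 of 9 higher and 4 lower (median -0.11). The list was divided by name at the later stages, so the sums do not stand for all its clones. Tested apolipoprotein clones had log2 ratios of -0.89 to -1.26 at stage 39 and -0.44 to -2.16 at stage 46. Transferrin clones had 0.34 to 0.47 at stage 39, and 0.21 and 0.84 at stage 46. Fibrinogen clones ran from -0.28 to 0.36 at stage 39 and from -0.11 to 0.45 at stage 46. The part of liver cells in the multivitamin transporter result was not tested.

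Neutral amino acid transporter B(0), known as ASCT2 or SLC1A5 in mammals, exchanges glutamine and other neutral amino acids across the cell membrane. Its single clone, XL059b13, was well above background in both regions on all arrays. Its log2 ratios were -0.24 and -0.22 at stage 30, -0.17 and -0.26 at stage 39, and 0.38 and 0.35 at stage 46. The values were below 0 on all arrays of the earlier stages and above 0 on both arrays of stage 46, with no overlap. The stage means were -0.23 (limma, adjusted p = 0.00844), -0.22 (adjusted p = 0.00945) and 0.37 (adjusted p = 0.00106), the last 1.29-fold higher in anterior endoderm. The ratio rose by 0.60 ± 0.08 at stage 46 relative to stage 30 (adjusted p = 0.000593) and by 0.58 ± 0.08 relative to stage 39 (adjusted p = 0.000701). Within a region no stage difference passed the test, with adjusted p from 0.163 to 0.825. The stage 39 difference lost its call without array B of that stage (0.114), and that of stage 30 was -0.09 with no background subtraction (0.114). In the authors' deposited table the stage 39 log2 ratio was -0.85, where the median of all probes was -0.32.

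The name low-affinity glucose transporter, in use for yeast hexose carriers, stood on 2 clones. Clone XL062j10 had log2 ratios of -0.25 and -0.46 at stage 30, where both regions were well above background, which gave -0.35 ± 0.10 (limma, adjusted p = 0.0177). Clone XL088i17 had ratios of 0.33 and 0.25 at the same stage, or 0.29 ± 0.05 (adjusted p = 0.00319). The clones thus differed in direction at stage 30, and the mean over both was -0.03 (adjusted p = 0.720).

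At stage 39 clone XL088i17 read 1015 and 735 in anterior endoderm, against 1998 and 1543 in posterior endoderm. Anterior endoderm was not well above background there and posterior endoderm was so on 1 array. The fit put the anterior signal 2.04-fold lower (limma, adjusted p = 6.58e-06). Where 1 side of a comparison missed the background mark, as here, the fold given is the fitted one. The local background SD beside such a spot can be high, so the true fold may be larger or smaller. The anterior signal of XL088i17 fell 2.14-fold by the fit at stage 39 relative to stage 30 (limma, adjusted p = 0.0257). Its posterior signal differed by 0.22 (log2, adjusted p = 0.675). Clone XL062j10 read 1738 and 1088 in anterior endoderm at stage 39, against 3426 and 2047 in posterior endoderm, with neither well above background. Neither clone was well above background in either region at stage 46, so no ratio is given there.

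Monocarboxylate transporters carry lactate, ketone bodies and related acids. Monocarboxylate transporter 7 (SLC16A6), which in zebrafish exports a ketone body from the liver, was the name with the most clones, 5 in all. At stage 39 all 4 clones tested were lower in anterior endoderm, by -0.63 to -0.75 (log2). One of these, XL082p22, was well above background in posterior endoderm alone. The fifth clone, XL058n22, had a value on 1 array of that stage only, -0.64.

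The brightest clone of monocarboxylate transporter 7 was XL091c13, which was well above background in both regions on all arrays. At stage 39 it read 4125 and 2575 in anterior endoderm, against 5628 and 3758 in posterior endoderm. Its log2 ratios were -0.29 and -0.19 at stage 30, -0.77 and -0.74 at stage 39, and 0.04 and -0.16 at stage 46. The stage 39 values lay below those of the other stages with no overlap. The means were -0.24 (limma, adjusted p = 0.0161), -0.75 ± 0.07 (adjusted p = 5.54e-05) and -0.06 (adjusted p = 0.463). The ratio dropped by 0.51 at stage 39 relative to stage 30 (adjusted p = 0.0022) and rose by 0.69 at stage 46 relative to stage 39 (adjusted p = 0.000761). The stage 30 difference lost its call without array A of that stage (0.110).

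The other clones of monocarboxylate transporter 7 shared the stage 39 direction, while at stage 30 the clones were divided. Of the 4 tested at stage 30, 2 were lower in anterior endoderm, 1 was higher and 1 did not pass. Clone XL058n22 was the second lower one, with log2 ratios of -0.44 and -0.64 (mean -0.54, limma, adjusted p = 0.000814). Its 1 value at stage 39, -0.64, was no lower than these. Clone XL105c23 had log2 ratios of 0.23 and 0.44 at stage 30, which gave 0.33 ± 0.07 (limma, adjusted p = 0.00644), and -0.75 and -0.54 at stage 39. Clone XL110e09 had 0.17 and 0.09 at stage 30 (adjusted p = 0.0771), and -0.64 and -0.62 at stage 39. All 3 clones tested between stages 30 and 39 dropped in ratio, by 0.51 to 0.98, and the same 3 clones rose between stages 39 and 46, by 0.69 to 0.80. X. laevis keeps 2 copies of many genes, and the current RefSeq names list slc16a6.L and slc16a6.S. Which copy a clone stands for was not determined, and clones of 1 gene are not independent.

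In signal, clone XL091c13 of monocarboxylate transporter 7 was higher at stages 39 and 46 than at stage 30 in both regions. Between stages 39 and 46 no change was called. The log2 differences there were 0.46 in anterior endoderm (limma, adjusted p = 0.425) and -0.23 in posterior endoderm (adjusted p = 0.772). The normalised log2 signal of XL091c13 in anterior endoderm was 10.35 ± 0.53, 11.76 ± 0.41 and 12.22 ± 0.01 at stages 30, 39 and 46 (SD, n = 2 arrays). In posterior endoderm it was 10.59 ± 0.46, 12.51 ± 0.44 and 12.28 ± 0.15. The anterior rise was 2.65-fold by stage 39 (limma, adjusted p = 0.0201) and 3.66-fold by stage 46 (adjusted p = 0.00432), and the posterior rise was 3.79-fold (adjusted p = 0.00481) and 3.23-fold (adjusted p = 0.00673). The anterior rise by stage 39 lost its call without array A of stage 30 (0.0727) or either array of stage 39 (0.196 and 0.0651), the posterior one without array A of stage 39 (0.0875), and the posterior rise by stage 46 without array B of that stage (0.0685). Of the other clones, XL110e09 rose 2.46-fold in posterior endoderm by stage 46 (adjusted p = 0.0484), and XL105c23 passed in no comparison.

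Monocarboxylate transporter 4 (SLC16A3 in mammals), which exports lactate from cells that rely on glycolysis, had 2 clones that disagreed at the later stages. The brighter one, XL107b15, had log2 ratios of 0.18 and 0.24 at stage 30, 0.29 and 0.24 at stage 39, and 0.43 and 0.40 at stage 46. It was higher in anterior endoderm at each stage (limma, adjusted p = 0.0121, 0.0034 and 0.000606), by 1.16-fold to 1.34-fold. In the authors' deposited table its log2 ratio at stage 39 was -0.08, below 0 but above that table's median of all probes, -0.32. The dimmer one, XL063o02, read 295 and 177 in anterior endoderm at stage 39, against 785 and 520 in posterior endoderm. In anterior endoderm it was not well above background on any array. By the fit it was 1.97-fold lower there at stage 39 (limma, adjusted p = 0.00176) and 1.72-fold lower at stage 46 (adjusted p = 0.00651). The direction for monocarboxylate transporter 4 thus rests on the clone taken, and the files do not show which copy each clone represents.

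Nucleotide sugar transporters bring activated sugars into the endoplasmic reticulum and Golgi, where glycoproteins are built. Here 2 clones were named UDP-galactose transporter related. Clone XL097d02 read 2138 and 1414 in anterior endoderm at stage 39, against 3819 and 2586 in posterior endoderm. Its log2 ratios there were -1.07 and -0.96, or -1.02 ± 0.07 (limma, adjusted p = 1.8e-05), which is 2.02-fold lower in anterior endoderm. At stage 30 its ratios were 0.44 and 0.67. Posterior endoderm was not well above background at that stage, and the fitted signal was 1.47-fold higher in anterior endoderm (limma, adjusted p = 0.000524). At stage 46 neither region was.

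The second UDP-galactose transporter clone, XL075m14, had log2 ratios of -0.26 and -0.21 at stage 30, -0.70 and -0.62 at stage 39, and 0.06 and 0.10 at stage 46. Its stage means were -0.24 (limma, adjusted p = 0.00802), -0.66 (adjusted p = 4.36e-05) and 0.08 (adjusted p = 0.235). Both clones were therefore lower in anterior endoderm at stage 39 and opposed each other at stage 30, where their mean was 0.16 (adjusted p = 0.0561). In signal, XL097d02 fell 2.20-fold in anterior endoderm at stage 39 relative to stage 30 (adjusted p = 0.0331). That fall lost its call without array B of stage 30 (0.0767), without either array of stage 39 (0.0934 and 0.210) and without either array of stage 46 (0.0782 and 0.0799).

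**Figure D3:**
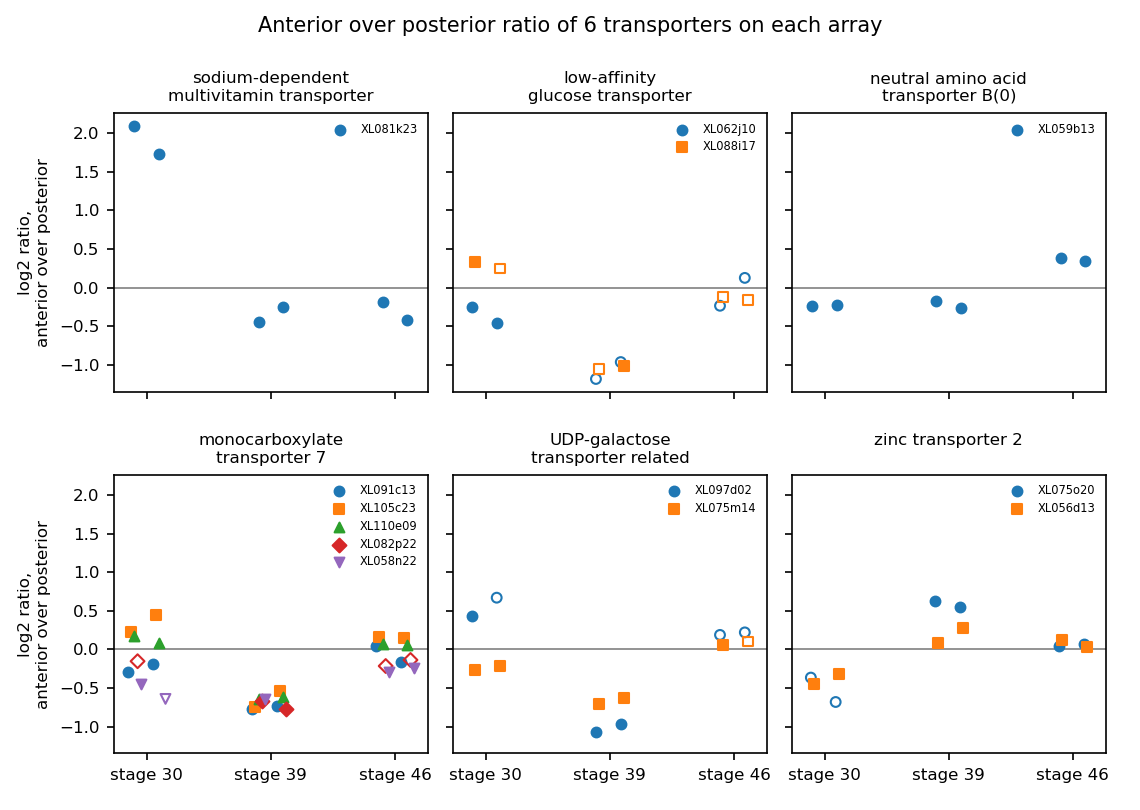
Log2 ratio of anterior over posterior endoderm (y axis) on each array at stages 30, 39 and 46 (x axis, array A left of array B) for every clone of 6 transporters; open symbols mark arrays on which neither region was well above background. The multivitamin transporter had 2.09 and 1.73 at stage 30, all clones of monocarboxylate transporter 7 lay at or below -0.54 at stage 39, and both clones of zinc transporter 2 lay above 0 at stage 39.

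Zinc transporter 2 (SLC30A2 in mammals), which loads zinc into vesicles of secretory cells, ran the other way at stage 39. Clone XL075o20 read 1721 and 1305 in anterior endoderm at that stage, against 1307 and 1005 in posterior endoderm. Its log2 ratios there were 0.63 and 0.55, or 0.59 ± 0.08 (limma, adjusted p = 0.000429), which is 1.50-fold higher in anterior endoderm. At stage 46 they were 0.04 and 0.07 (adjusted p = 0.553). At stage 30 the clone read 2524 and 1076 in anterior endoderm, against 3212 and 2109 in posterior endoderm, with neither region well above background.

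The second zinc transporter 2 clone, XL056d13, was well above background in both regions on all arrays. Its log2 ratios were -0.44 and -0.32 at stage 30, 0.09 and 0.28 at stage 39, and 0.12 and 0.04 at stage 46. The stage means were -0.38 (limma, adjusted p = 0.00233), 0.18 (adjusted p = 0.044) and 0.08 (adjusted p = 0.339). The ratio of XL056d13 was below 0 on both arrays of stage 30 and above 0 on all later arrays, and it rose by 0.56 at stage 39 relative to stage 30 (adjusted p = 0.00156). In the authors' deposited table the log2 ratio of XL056d13 was -0.27 at stage 39 and -0.10 at stage 46. Both values were below 0 and close to that table's medians of all probes, -0.32 and -0.11, so that table shows no clear regional difference for this clone. For XL075o20 the ratio dropped by 0.53 at stage 46 relative to stage 39 (adjusted p = 0.00574). Its posterior signal was well above background on 1 of the 2 arrays of stage 39. The means of XL056d13 at these stages, 0.18 and 0.08, did not show a drop of that size. In signal, XL075o20 rose 2.13-fold by the fit in anterior endoderm at stage 39 relative to stage 30 (limma, adjusted p = 0.0411). Its stage 30 spots missed the background mark beside local background SDs of 4045 and 1627, so the true fold may be larger or smaller. The anterior rise lost its call without either array of stage 39 (0.222 and 0.164) or of stage 46 (0.0884 and 0.0896).

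Of the 14 clones with bacterial or fungal names, 9 were tested at stage 30, 7 at stage 39 and 8 at stage 46. They are proteins such as permeases of bacterial ABC systems and the yeast metal carrier SMF1/ESP1, and which Xenopus genes the clones hold is not annotated. At stage 30, 1 was higher and 3 were lower in anterior endoderm, with log2 ratios of -0.79 and -0.52 for the lower clones measured in both regions. All 3 lower clones had the name ABC transporter (permease). The third of them, and the higher clone, of the name probable ABC transporter, were not well above background at that stage, in anterior or in posterior endoderm. At stage 46, 2 were higher, with log2 ratios of 0.25 and 0.33, and 1 was lower, with -0.46. The ratios of all 8 tested, called or not, ran from -0.52 to 0.33.

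Within a region, 20 transporter clones had a value on all arrays and were compared over the stages. In anterior endoderm 5 changed at stage 39 relative to stage 30, where 11% of all probes did, and 2 changed at stage 46 relative to stage 30 (14.3% of all probes). In posterior endoderm 2 changed at stage 39 (7.24%) and 4 at stage 46 (12.8%), both relative to stage 30. For stage 46 against stage 39, no transporter clone changed in anterior endoderm by limma (5.63% of all probes), with 4 at an unadjusted p under the threshold. In posterior endoderm 1 did (5.72%), the probable MFS transporter, which fell 2.30-fold and was named after its value was seen. The stage 39 changes in anterior endoderm were 3 falls, among them the multivitamin transporter, and 2 rises, in monocarboxylate transporter 7 and zinc transporter 2. Their number was 3 without array B of stage 30, 1 without either array of stage 39 and 2 without either array of stage 46. The posterior stage 39 count was 4 without array B of stage 30, 0 without array A of stage 39, and 1 without array B of stage 39 or of stage 46. Of the stage 46 against stage 30 counts, the anterior one was 5 without array B of stage 30, and the posterior one was 1 without array A or B of stage 39 or array A of stage 46 and 0 without array B of stage 46. For stage 46 against stage 39, the anterior count was 1 without array A and 2 without array B of stage 30, and the posterior count was 0 without any 1 array of stages 39 and 46.

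Other transport proteins were counted from lists of words in their names. For comparison, the shares of all probes that were higher and lower in anterior endoderm were 28.6% and 27.7% at stage 30, 31.4% and 31.7% at stage 39, and 30.4% and 25.2% at stage 46. Lists with under 10 tested clones are too short to set against these shares and are given as counts. The list of proton and other ATPase pumps, with 15 clones, had none higher and 7 lower of 11 tested in anterior endoderm at stage 30. It had none higher and 9 lower of 10 at stage 39 (median log2 ratio -0.63), and 6 higher and 2 lower of 10 at stage 46. Of the 7 channel clones, 3 of 4 tested were higher at stage 30 and none was lower, 1 of 2 was higher at stage 39, and 1 of 4 was higher and 1 lower at stage 46. The only exchanger clone had -0.40, -1.49 and -0.63 at stages 30, 39 and 46, lower in anterior endoderm each time. Of the 3 aquaporin clones, which stand for water channels, 1 of 2 tested was lower at stages 30 and 39, and 1 of 3 was higher at stage 46. Brush border and digestion clones were higher in 4 and lower in 3 of 7 tested at stage 30, 1 and 3 of 7 at stage 39, and 3 and 2 of 7 at stage 46.

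The stage 39 ratios of the transporters are read beside cell type marker lists, made from words in the names, and control spots. Over all probes, 31.4% were higher and 31.7% were lower in anterior endoderm at stage 39, the shares for the counts below. At that stage 21 of 28 tested skeletal muscle marker clones were lower in anterior endoderm and 4 were higher (median log2 ratio -0.42). The summed signal of the 20 muscle marker clones with values on all arrays was 23207 to 23739 in anterior endoderm and 33841 to 34451 in posterior endoderm. Of 36 muscle marker clones, 4 were well above background on no array, 2 of them of troponin C and 2 of fast troponin I. The epidermis list was made from the words keratin, desmoplakin and periplakin. It holds keratins of several types and junction plakoglobin, so it is not particular to epidermis. Of its 29 clones, 1 was well above background on no array, and 11 of 19 tested were lower and 1 was higher (median -0.33). Its summed signals were 39107 to 42912 in anterior endoderm and 44733 to 50360 in posterior endoderm. Both tested clones of tektin, a protein of cilia, were lower, and the cilia list's other clone was well above background on no array. Endodermin was also lower in anterior endoderm at stage 39, by -1.70 and -1.55 for its 2 clones. The rest of the endoderm list, clones picked by the word GATA and not all particular to endoderm, was divided at that stage. Clones named XGATA-6B were higher in anterior endoderm, with log2 ratios from 0.54 to 0.92, as was that of XGATA-3 with 0.68. Clones named XGATA-2 had -0.68 and -0.41, the latter not called. Of 17 tested nervous system clones, 6 were higher and 6 were lower, while the summed signal of the 14 with values on all arrays was 32588 to 33240 in anterior endoderm and 54887 to 55538 in posterior endoderm. Of all 29 nervous system clones, 10 were well above background on no array. The intestine list had 3 clones, 1 of them well above background on no array. Its villin clone had a log2 ratio of -0.12 (limma, adjusted p = 0.100). Its clone of intestinal membrane A4 protein had -0.34 (adjusted p = 0.0235). Of 16 red blood cell clones, 4 were well above background on no array. The summed signal of the 7 with values on all arrays was 16433 to 17829 in anterior and 16440 to 16480 in posterior endoderm. Called or not, erythrocyte adducin clones had 0.18 to 0.52, and clones of 55 kDa erythrocyte membrane protein had -0.35 to -0.70. Clones of erythrocyte membrane protein 7 had -0.40 and -0.44, and beta-spectrin had 0.14. The part of the cells of these lists in the transporter ratios was not tested.

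Control spots of lambda phage DNA, whose sequence is foreign to the embryo, also had low ratios at stage 39. Their median log2 ratio was 0.62 and 0.32 on arrays A and B of stage 30, -0.99 and -1.10 at stage 39, and -0.68 and -0.57 at stage 46. At stage 39, 12 of the 13 lambda spots were found on array A and all 13 on array B. The spots found read a median of 1243.5 and 813 in the anterior channel, against 2202 and 1801 in the posterior channel. Control spots of GFP, with 2 to 4 spots found on an array, had median ratios between -0.08 and 0.11. At stage 39 they were dim, with medians of 339 and 227.5 in the anterior channel beside array background medians of 184 and 116. They therefore cannot show whether they share the pattern. Control spots of EF1alpha, with median ratios between 0.07 and 0.27, did not share it. Control spots without a name, of which 31 to 60 were found on an array, had lower medians at stage 39, -0.19 and -0.27. Their medians were 0.15 and 0.18 at stage 30, and 0.15 and 0.10 at stage 46. The stage 39 ratios of the 10 lower transporter clones well above background in at least 1 region, -0.22 to -1.03, lay within or above the range of the lambda spots, -0.72 to -1.36. What the lambda spots share with the transporter clones was not tested.

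**Figure D4:**
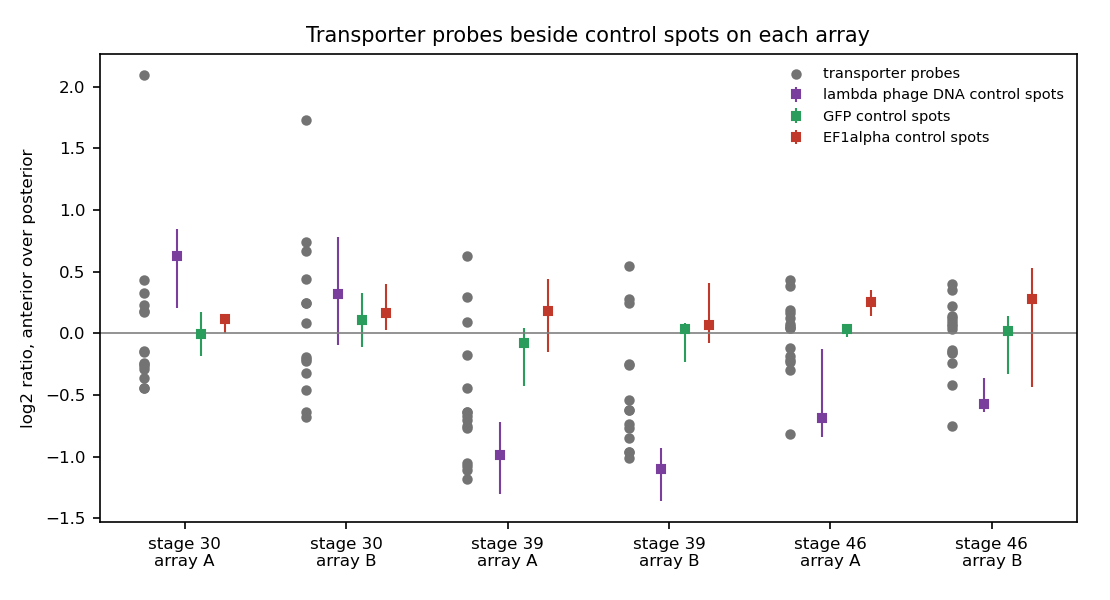
Log2 ratio of anterior over posterior endoderm (y axis) on each of the 6 arrays (x axis) for the 15 transporter clones past the filter with a vertebrate-type name or the glucose transporter name (grey dots), and for control spots of lambda phage DNA, GFP and EF1alpha (squares are medians, bars run from the lowest to the highest spot). Lambda spots had medians of -0.99 and -1.10 on the arrays of stage 39. The GFP spots, dim at stage 39, had medians between -0.08 and 0.11 on all arrays.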

How the data were processed

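Ratios were computed from the scanner files, deposited by the authors with linear median intensity values per spot and dye, not background-subtracted or normalised. Each deposited file listed, too, a percent of saturated pixels and a flag score that marks spots not found. Per the labels, images came from a GenePix scanner whose gain was set per slide. In the authors' deposited table each clone has a ratio per stage, condensed from both arrays with GeneData software, per the labels. The software version is not given in the sources used. That table had no test and served as an alternative. Its correlation across probes with the ratios below was 0.995, 0.868 and 0.978 at stages 30, 39 and 46.

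In R 4.3.3 with limma 3.58.1 and data.table (1.17.8), background was corrected with normexp (offset 50), and ratios were normalised by loess within arrays (span 0.3), with no weight for the 231 control spots and for spots not found, which were left out. The fit took the 15646 probes that passed the background mark on 2 or more arrays in either dye, 1 mean for each stage (3 residual degrees of freedom), with empirical Bayes moderation, two-sided tests and Benjamini-Hochberg adjustment over all probes tested. Signals within a region used separate channels after Aquantile (lmscFit, 11791 probes with a value on all arrays, intraspot correlation 0.95). Array number limits the precision, with 2 arrays a stage. Where 1 region missed the background mark on both arrays of a stage, the fitted fold is given and the miss is stated. Where both regions missed it, no fold is given for a named clone. A named clone's difference of ratios between stages is given only where both regions passed at both stages. Counts include all tested clones. No saturated spot entered a named value.

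The members, lists and tests were chosen with earlier results of these data known. A name is represented by its brightest clone with values on all arrays. It is given in full where that clone was called with a size of at least 0.58 (log2) and the same direction on both arrays, at a stage or between stages. Other names, and bacterial or fungal ones, are given by counts and range, with exceptions stated. Exclusions in the word lists of markers and related genes were added after the names were seen. Of the vertebrate-type names, 6 were matched to RefSeq gene symbols, and no genome positions or clone sequences were used here. Alternatives changed the background, the normalisation, the filter and the arrays used. The fits were tested on simulated data.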

Additional observations from a re-analysis of the deposited data

Results flagged for a closer look

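The following anterior over posterior ratios differed between stages, by limma's test of the difference itself (log2, adjusted p under 0.05 over all probes), with both regions well above background at both stages. The sodium-dependent multivitamin transporter had a difference of -2.26 for stage 39 minus stage 30 and of -2.21 for stage 46 minus stage 30. Neutral amino acid transporter B(0) had 0.60 for stage 46 minus stage 30 and 0.58 for stage 46 minus stage 39. Monocarboxylate transporter 7 had -0.51 for stage 39 minus stage 30 and 0.69 for stage 46 minus stage 39. Zinc transporter 2 had -0.53 for stage 46 minus stage 39 in clone XL075o20. Its other clone, XL056d13, had means of 0.18 at stage 39 and 0.08 at stage 46, with no drop of that size. With 2 arrays a stage, single arrays could not be examined for outlying values.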

How the results depend on the processing

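For the brightest clone of each of the 6 transporters given in full, no called value turned its direction under the alternatives tried. Clones beyond these 6 were set against the authors' deposited table alone. At stage 39, 2 called ratios above 0 lay below 0 in that table. They were XL107b15 of monocarboxylate transporter 4 (-0.08 in the authors' deposited table, against 0.27) and XL056d13 of zinc transporter 2 (-0.27, against 0.18). The median of all probes in that table was -0.32, with XL107b15 above it and XL056d13 close to it. With only clones well above background on all 6 arrays (10 transporter clones tested), the counts called were 7, 7 and 4 at stages 30, 39 and 46, against 16, 14 and 10. For stage 39 minus stage 30, stage 46 minus stage 39 and stage 46 minus stage 30 they were then 6, 4 and 6, against 15, 11 and 13. With the background SD of the whole array in place of the spot's, an alternative chosen after seeing the data, 6 clones were called at stage 46. With quantile normalisation of all channels, 0 clones changed in posterior endoderm between stages 39 and 46, against 1. Leaving out 1 array at a time gave 13 to 16, 11 to 17 and 2 to 14 clones at stages 30, 39 and 46. The same gave 11 to 16 for stage 39 minus stage 30, 9 to 13 for stage 46 minus stage 39 and 8 to 12 for stage 46 minus stage 30. In anterior endoderm it gave 1 to 4, 0 to 2 and 2 to 5 clones for stages 39 against 30, 46 against 39 and 46 against 30. In posterior endoderm it gave 0 to 4, 0 to 1 and 0 to 5 in that order. The cause was not tested. These fits took the intraspot correlation of all arrays, and the lone array of a stage was assumed to vary like the others. Loess and median centring both set the median of all probes near 0 by design, so its shift of under 0.1 between them tests nothing. No normalisation within arrays put that median at 0.12, 0.11 and -0.24 at stages 30, 39 and 46. The labels give no shared replicate numbers. With the array letter as a block the counts of ratios called kept within 1.5 times and no named ratio changed its call. The authors' ratios have no test. Dim signal limits the clones not well above background, and 2 arrays a stage limit the precision of all.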
